A study of Mus musculus with 2 samples.

Results

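The protein-coding chaperone genes of the mouse lens were examined in a comparison of Msx2 conditional knockout mice with floxed mice that lack Cre. Genes were taken by a rule on their symbols: HSP90 (Hsp90), HSP70 and HSP110 (Hspa and Hsph1), small heat shock proteins (Hspb), the mitochondrial chaperonin pair Hspd1 and Hspe1, the J-domain families (Dnaja, Dnajb and Dnajc) and the subunits of the cytosolic chaperonin CCT (Cct). The rule found 77 of the 21673 genes in the table. Of these, 66 were measured, meaning that their mean level over both libraries was 1 FPKM or more (a read level per kilobase of gene that is scaled for the size of the library), among 10757 such genes in all.

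The CKO library came from C57BL/6 mice of 60 days with both Msx2 copies floxed and 1 Le-Cre allele, and the WT library from mice of the same strain and age that carried the floxed alleles without Cre. Le-Cre uses Pax6 regulatory sequence to drive Cre in the lens and other derivatives of the eye's surface ectoderm, and no library with Cre and intact Msx2 alleles was analysed here, so Cre and the loss of Msx2 cannot be told apart. Each genotype was sequenced once, to 17165504 counted reads for CKO and 20784737 for WT, and the labels do not say whether lenses of several animals were pooled. No replicate and hence no test was possible, so every difference describes these libraries only.

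Chaperones bind unfolded or partly folded proteins and release them in cycles of ATP binding and hydrolysis. J-domain proteins deliver clients to HSP70 and trigger its ATPase, HSP110 proteins exchange the nucleotide, HSP90 acts on nearly folded clients such as kinases and steroid receptors, and the chaperonins enclose a chain in a barrel. Small heat shock proteins hold unfolding proteins in solution without ATP. In the lens, whose fibre cells lose their organelles and keep their proteins for life, the most abundant small heat shock proteins are the alpha-crystallins, and HSF4 is the heat shock transcription factor characteristic of the tissue.

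Msx2 itself was at 0.0392 FPKM (3 reads) in CKO and 6.21 FPKM (311 reads) in WT. The libraries also differed in their cell type markers. All 8 photoreceptor markers were more than 2-fold higher in CKO, with a summed level of 694 FPKM in CKO and 16.9 FPKM in WT, as were all 7 inner retina and glia markers, with 154 FPKM in CKO and 44.9 FPKM in WT, and none of these 15 markers was at 0 in either library. Of 4 listed ocular surface markers only 2, Aldh3a1 and Lypd2, were found. Both were higher, and they summed to 335 FPKM in CKO and 11.8 FPKM in WT. The leukocyte markers (4 of 4 measured higher) summed to 34.2 FPKM in CKO and 5.63 FPKM in WT. Of 6 listed lens fibre markers 5 were found, and 4 of these were lower in CKO as deposited. The 5 summed to 118794 FPKM in CKO and 286627 FPKM in WT, or 23.0% and 29.4% of counted reads. How far they were lower depended on the scaling: the log2 ratio of Cryaa was -1.33 as deposited and -0.44 with library totals alone. Of 4 lens epithelium markers 1 was lower as deposited, with 109 FPKM summed in CKO and 207 FPKM in WT. Xist had 16251 reads in CKO and 35 in WT, and the Y-linked gene Eif2s3y 0 in CKO and 819 in WT, so the libraries differed in sex chromosome content. For the lens fibre and lens epithelium markers, fewer cells of a type and less RNA per cell cannot be told apart in whole lenses. The photoreceptor, inner retina, ocular surface and leukocyte markers were listed for cell types other than those of the lens, and where their RNA came from was not tested. The part of all these marker differences in the chaperone results was not tested.

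Promoter sequences are shown for 5 genes on which the results turn. The windows run from 250 bases before to 50 bases after an annotated start (RefSeq, GRCm38.p6). Capitals mark the 2-unit heat shock element, searched as GAANNTTC or TTCNNGAA, each of which reads the same on both strands, or in Hspa5 the ER stress element, in which CCAAT and CCACG are 9 bases apart. The stress-inducible HSP70 genes Hspa1b (minus strand, chr17:34959189-34959488) and Hspa1a (minus strand, chr17:34972107-34972406) come first because only Hspa1b passed the size rule used below, while their windows differ at 4 of 300 bases. Hspe1 (plus strand, chr1:55087898-55088197) is shown for the element it shares with Hspd1, Hspb1 (plus strand, chr5:135887669-135887968) as the most abundant member, and Hspa5 (plus strand, chr2:34771840-34772139) for the ER stress element.
Hspa1b: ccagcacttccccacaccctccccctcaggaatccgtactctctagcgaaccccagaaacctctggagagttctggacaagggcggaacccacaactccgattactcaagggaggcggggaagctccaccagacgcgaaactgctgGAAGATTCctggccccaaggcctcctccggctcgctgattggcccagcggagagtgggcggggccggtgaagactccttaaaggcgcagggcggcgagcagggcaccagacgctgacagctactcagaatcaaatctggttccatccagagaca
Hspa1a: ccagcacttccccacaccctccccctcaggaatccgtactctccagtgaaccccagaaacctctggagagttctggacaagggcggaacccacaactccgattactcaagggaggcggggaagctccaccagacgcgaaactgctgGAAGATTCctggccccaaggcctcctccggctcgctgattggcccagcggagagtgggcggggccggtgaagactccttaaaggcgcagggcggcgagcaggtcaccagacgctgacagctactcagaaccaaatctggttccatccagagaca
Hspe1: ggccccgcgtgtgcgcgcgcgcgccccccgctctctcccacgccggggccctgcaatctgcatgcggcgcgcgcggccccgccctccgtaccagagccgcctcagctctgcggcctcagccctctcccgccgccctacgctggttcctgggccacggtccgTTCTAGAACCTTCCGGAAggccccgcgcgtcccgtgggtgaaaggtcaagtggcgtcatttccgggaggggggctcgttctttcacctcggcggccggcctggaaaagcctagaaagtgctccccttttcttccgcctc
Hspb1: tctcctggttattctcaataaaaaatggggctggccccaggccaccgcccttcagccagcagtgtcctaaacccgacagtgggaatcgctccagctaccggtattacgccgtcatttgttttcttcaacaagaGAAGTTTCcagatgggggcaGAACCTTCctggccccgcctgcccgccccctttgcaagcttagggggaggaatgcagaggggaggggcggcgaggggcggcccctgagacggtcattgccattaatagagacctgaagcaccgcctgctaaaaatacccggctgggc
Hspa5: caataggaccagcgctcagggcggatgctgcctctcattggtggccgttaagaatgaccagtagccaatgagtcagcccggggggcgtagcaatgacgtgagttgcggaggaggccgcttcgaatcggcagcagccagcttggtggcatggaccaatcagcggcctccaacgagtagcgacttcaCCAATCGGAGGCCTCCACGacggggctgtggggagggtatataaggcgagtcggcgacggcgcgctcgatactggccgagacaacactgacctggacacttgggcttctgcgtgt

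Chaperone genes differed little between the CKO and WT libraries, with exceptions in the HSP70 family. By the size rule, a 2-fold ratio after adding 1 FPKM to each level, 2 of the 66 measured members were higher in CKO, Hspa12a and Hspa1b, and none was lower. Over all measured genes the same rule counted 5.83% higher and 2.93% lower, or 8.76% in either direction, and 7.79% of measured protein-coding genes passed it in either direction. The median log2 ratio (CKO over WT) of the members was -0.07, against -0.02 for all measured genes, and their quartiles were -0.20 and 0.09, against -0.24 and 0.22. All directions are on the deposited scaling, and with scaling to library totals alone all 66 log2 ratios were above 0. Within 1.5-fold lay 90.9% of the members and 81.8% of all measured genes.

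The order of levels was nearly the same in both libraries, with a Spearman correlation of 0.97 across the 66 members. Each gene's level was divided by the same gene length in both libraries. By mean level on the deposited gene lengths Hspb1 was the highest member, followed by Hsp90ab1, Hspa8, Hsp90aa1 and Dnajb1, and most members of the J-domain families lay below 20 FPKM. With the length of the principal annotated transcript this order changed. Dnajb1 was then at 76.5 FPKM in CKO and 85.0 FPKM in WT, below Hspe1 at 138 FPKM in CKO and 150 FPKM in WT. The deposited lengths were 2263 bases for Dnajb1 and 1474 for Hspe1, against 2996 and 774 for the principal transcripts. Reads and lengths may thus belong to different gene models, so the order of these genes is uncertain. The small heat shock proteins made up 53.9% of the summed member FPKM in CKO and 55.0% in WT, HSP90 16.4% in CKO and 19.3% in WT, and HSP70 with HSP110 9.71% in CKO and 8.14% in WT. Measured members had as few as 68 reads in CKO and 20 in WT, so the counting error differs widely among them. The 95% counting interval of the ratio excluded 1 for 42 measured members, 16 of them higher in CKO and 26 lower, and included it for 24. Over all measured genes it excluded 1 for 55.6%, with 25.9% higher and 29.6% lower.

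**Figure D1:**
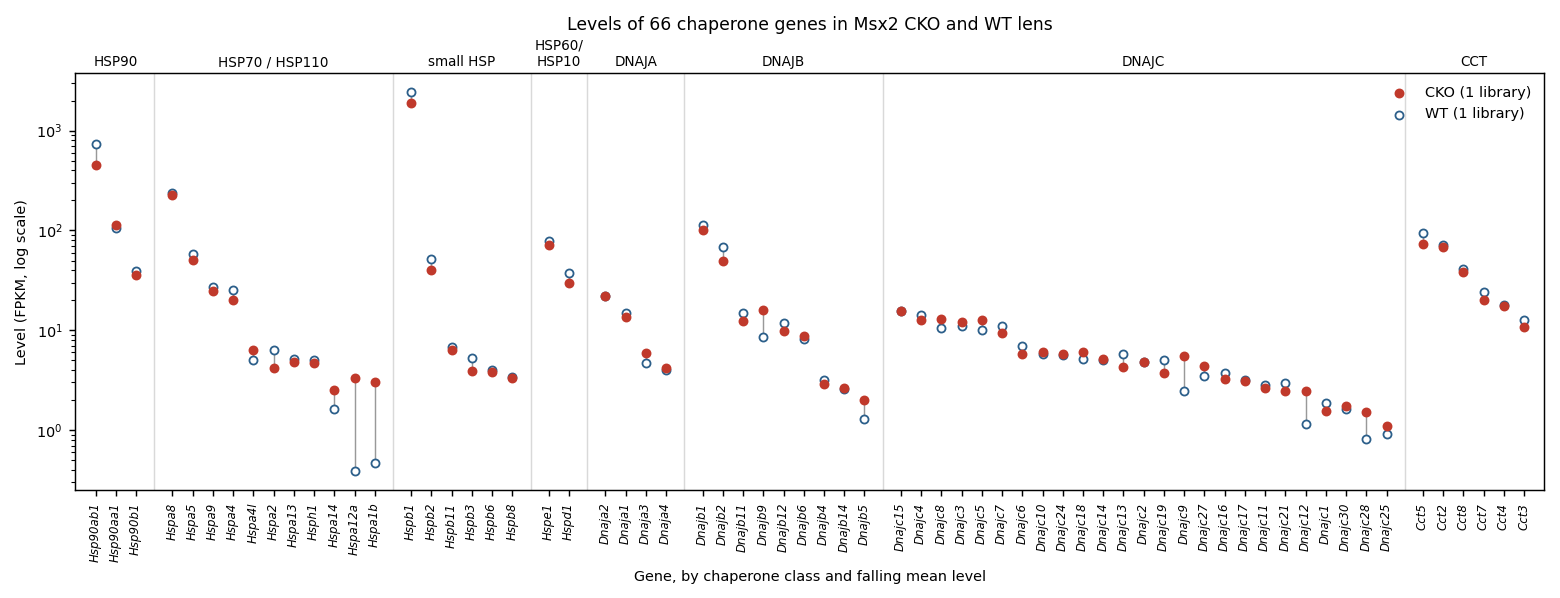
Levels in FPKM (vertical axis, log scale) of the 66 measured chaperone genes, grouped by class and ordered by falling mean level; filled red points are the CKO library, open blue points the WT library, and grey lines join the libraries. Most pairs of points lie close together, while Hspa12a and Hspa1b stand at 3.34 and 3.07 FPKM in CKO against 0.388 and 0.467 FPKM in WT.

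The HSP70 and HSP110 class held both genes past the size rule and no gene past it as lower. Hspa12a, a divergent HSP70 relative abundant in brain, was at 3.34 FPKM (448 reads) in CKO and 0.388 FPKM (34 reads) in WT, 8.61-fold higher (95% counting interval 6.07 to 12.6). Hspa1b, which encodes the HSP70 made on heat and other protein stress, was at 3.07 FPKM (201 reads) in CKO and 0.467 FPKM (20 reads) in WT, 6.57-fold higher (4.14 to 10.98). Both were minor transcripts: Hspa8, the constitutive cytosolic HSP70, stood at 229 FPKM in CKO and 235 FPKM in WT, 74.5 times the level of Hspa1b in CKO and 503 times in WT. Of 11 measured members of the class 9 lay within 2-fold, against 91.2% of all measured genes, and the class median was -0.08.

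Hspa1a, which encodes nearly the same protein as Hspa1b, was not measured by the level rule, at 0.332 FPKM (23 reads) in CKO and 0.309 FPKM (14 reads) in WT, a ratio of 1.07 (0.529 to 2.26). The 2 genes lie in tandem on the minus strand of chromosome 17 (Hspa1b from 34956436 to 34959238, Hspa1a from 34969190 to 34972156 on GRCm38) and are single-exon genes. Of the distinct 100-base stretches in the annotated Hspa1b transcripts 49.9% also occur in Hspa1a, and the sources do not state how reads that fit both were assigned, so the separate values are uncertain. Summed over the pair, 224 reads in CKO and 34 in WT gave a ratio of 4.30 (2.99 to 6.37), which does not depend on how the counted reads were divided between the genes. The third gene of the cluster, Hspa1l, best known from testis, had 4 reads in CKO and 5 in WT.

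The remaining HSP70 and HSP110 genes were close between the libraries. Hspa5, which encodes the ER chaperone BiP, was at 51.0 FPKM in CKO and 57.7 FPKM in WT, and Hspa9, which encodes mitochondrial mortalin, at 24.7 FPKM in CKO and 27.3 FPKM in WT. The HSP110 genes Hspa4, Hspa4l and Hsph1, nucleotide exchange factors for HSP70, were at 19.9, 6.28 and 4.69 FPKM in CKO and 25.1, 5.09 and 5.03 FPKM in WT. Hspa2, a HSP70 prominent in male germ cells, had the lowest ratio among measured members of the class, at 4.21 FPKM in CKO and 6.34 FPKM in WT, 1.51-fold lower (1.26 to 1.80). Hspa14, a ribosome-associated HSP70, was at 2.53 FPKM in CKO and 1.65 FPKM in WT, a ratio of 1.54 (1.30 to 1.82), and its partner in that complex, Dnajc2, at 4.82 FPKM in CKO and 4.78 FPKM in WT. Hspa12b, not measured by the level rule, had 50 reads in CKO and 18 in WT. No HSP70 gene other than Hspa12a and Hspa1b had a ratio above 2 as deposited.

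As deposited, Hspa12a was the only one of 5 members listed as neuron-rich to pass the size rule, where 5.83% of all measured genes were higher. With library totals Dnajc5 passed it as well (log2 ratio 1.09), where 19.5% of all measured genes were higher. Dnajc5, which encodes the synaptic vesicle J-protein CSP-alpha, was at 12.6 FPKM in CKO and 10.2 FPKM in WT, and Dnajb5 at 1.98 FPKM in CKO and 1.29 FPKM in WT. Dnajc6, which encodes the clathrin-uncoating factor auxilin, was at 5.76 FPKM in CKO and 6.94 FPKM in WT, and Dnajb2, a J-protein abundant in neurons, at 49.4 FPKM in CKO and 68.5 FPKM in WT. As deposited the group held members on either side of equal levels, while with library totals all 5 had log2 ratios above 0. The retinal markers above also differed between these libraries, and their part in the Hspa12a and Hspa1b values was not tested.

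**Figure D2:**
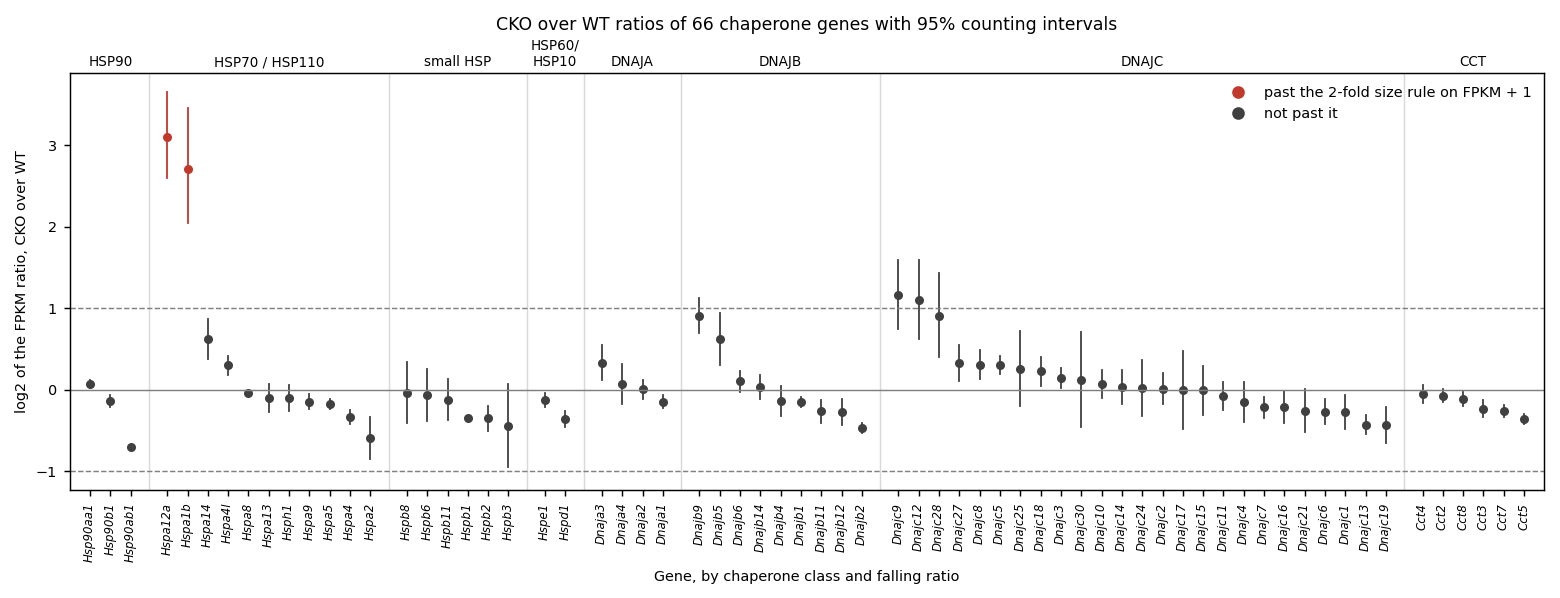
Log2 of the FPKM ratio, CKO over WT (vertical axis), of the 66 measured chaperone genes by class, ordered by falling ratio within a class; bars are 95% counting intervals, dashed lines mark 2-fold, and red points passed the size rule on FPKM + 1. Hspa12a and Hspa1b lie well above the dashed line, Dnajc9 and Dnajc12 just above it on this scale without the added 1 FPKM, and all small heat shock protein and CCT genes below 0 on the deposited scaling (above 0 with library totals).

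J-domain genes were the largest group, with 38 of 44 measured, and none passed the size rule as deposited, against 8.76% of all measured genes. The class medians were 0.03 for DNAJA (4 genes), -0.11 for DNAJB (9 genes) and 0.02 for DNAJC (25 genes). Dnajb1, the main heat-inducible cytosolic partner of HSP70, was at 101 FPKM in CKO and 112 FPKM in WT, a ratio of 0.900 (0.864 to 0.938). Among the type I J-proteins, Dnaja2 was at 22.1 FPKM in CKO and 22.0 FPKM in WT, Dnaja1 at 13.6 FPKM in CKO and 15.1 FPKM in WT, and the mitochondrial Dnaja3 at 5.88 FPKM in CKO and 4.67 FPKM in WT.

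The J-domain genes with the highest ratios were Dnajc9, Dnajc12 and Dnajb9, which as deposited came near the size rule without reaching it. Dnajc9, which encodes a co-chaperone of histones H3 and H4, was at 5.48 FPKM (209 reads) in CKO and 2.45 FPKM (61 reads) in WT, a ratio of 2.24 (1.68 to 3.03). Dnajc12, known for its action on aromatic amino acid hydroxylases, was at 2.45 FPKM (157 reads) in CKO and 1.15 FPKM (48 reads) in WT, a ratio of 2.14 (1.54 to 3.02). Dnajb9, an ER J-protein induced by the unfolded protein response, was at 15.99 FPKM in CKO and 8.53 FPKM in WT, a ratio of 1.87 (1.62 to 2.18). For Dnajc9 and Dnajc12 the plain ratio exceeded 2 but the added 1 FPKM brought the log2 ratios to 0.91 and 0.69. Whether they count as higher depends on that constant and on the scaling. With library totals Dnajc9, Dnajc12 and Dnajb9 passed the rule at 1.60, 1.24 and 1.65, where 19.5% of all measured genes were higher. With totals that leave out the crystallins they passed it at 1.24, 1.04 and 1.11, where 8.60% of all measured genes were higher. Dnajc28 had a ratio close to that of Dnajb9, 1.87 (1.32 to 2.70), from 126 reads in CKO and 44 in WT. The lowest log2 ratios of DNAJB and DNAJC were those of Dnajb2, 1.39-fold lower (1.33 to 1.45), and of Dnajc13, an endosomal J-protein, at 4.29 FPKM in CKO and 5.78 FPKM in WT, 1.35-fold lower (1.24 to 1.46).

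Dnajb9 had the highest ratio among 10 members of the endoplasmic reticulum. All of them were measured and as deposited within 2-fold, as were 91.2% of all measured genes, and their median log2 ratio was -0.11. Dnajb9 was past 2-fold with library totals and with totals that leave out the crystallins, as given above. Beside Hspa5, Hsp90b1 (GRP94) was at 35.6 FPKM in CKO and 39.2 FPKM in WT, and the ER J-protein genes Dnajb11 and Dnajc3 were at 12.3 and 12.1 FPKM in CKO and 14.8 and 10.9 FPKM in WT. The other ER member with a ratio above 1 and an interval that excluded it was Dnajc3, at 1.11 (1.02 to 1.20). The ER stress element was found in the windows of Hspa5, Hsp90b1 and Dnajc3 among 62 members with a window (4.84%), against 0.174% of 12091 protein-coding genes, and these letters were not in the window of Dnajb9.

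In the HSP90 class the main cytosolic gene had a ratio below 1 as deposited (above 1 with library totals), while its close relative had one above 1. Hsp90ab1, the constitutive HSP90, was at 449.9 FPKM in CKO and 732 FPKM in WT, 1.63-fold lower (1.60 to 1.65), the lowest ratio of any measured member. Hsp90aa1, the more stress-responsive HSP90, was at 112 FPKM in CKO and 107 FPKM in WT, a ratio of 1.05 (1.02 to 1.08). Hsp90ab1 therefore stood at 4.01 times the level of Hsp90aa1 in CKO and 6.85 times in WT. Of the distinct 100-base stretches of Hsp90aa1 31.6% also occur in the gene Gm12346, whereas Hsp90ab1 shared none with another annotated gene. Such sharing of more than 10% with another gene was found for 13 of the 77 members, among them Hspb1 (44.0%, with Hsp25-ps1), Hspa8 (26.3%, with Gm26825) and Hspd1 (22.4%, with Hspd1-ps3). Each share is with the gene that shares most. The levels of these members are therefore uncertain, by an amount that was not tested. Co-chaperones of HSP90 lay within 2-fold in 15 of 15 measured genes, against 91.2% of all measured genes, with a median of 0.03. Stip1, which links HSP70 to HSP90, was at 65.2 FPKM in CKO and 88.7 FPKM in WT, and the HSP90 ATPase activator Ahsa1 at 37.6 FPKM in CKO and 52.4 FPKM in WT, while the kinase-specific Cdc37 was at 31.9 FPKM in CKO and 28.0 FPKM in WT.

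The mitochondrial chaperonin genes Hspd1 (HSP60) and Hspe1 (HSP10) were at 29.5 and 72.3 FPKM in CKO and 37.8 and 79.0 FPKM in WT, ratios of 0.782 (0.730 to 0.838) and 0.916 (0.861 to 0.974). They lie head to head on chromosome 1 and overlap by 112 bases on opposite strands. The Hspe1 window shown above overlaps by 285 bases a window of Hspd1 (minus strand, chr1:55087883-55088182), so a cluster of overlapping heat shock elements in it, 1 GAANNTTC and 2 TTCNNGAA, lies in both windows. This cluster also holds the 3-unit form GAANNTTCNNGAA on either strand, which was found in 4 members (Dnajb6, Hspd1, Hspe1 and Hsph1; 6.45% of 62) against 0.538% of protein-coding genes. The mitochondrial members as a group, 8 of 8 measured, lay within 1.5-fold on the deposited scaling, as did 81.8% of all measured genes, with a median of -0.09.

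The cytosolic chaperonin CCT, which folds actin and tubulin in a ring of unlike subunits, had 6 measured subunit genes among the members, all with ratios below 1 as deposited (above 1 with library totals) and within 1.5-fold, with a median log2 ratio of -0.16, where 52.2% of all measured genes lay below 0. Cct5 had the lowest ratio, at 72.8 FPKM in CKO and 93.6 FPKM in WT, 1.29-fold lower (1.23 to 1.34), and Cct4 the highest, at 17.4 FPKM in CKO and 18.0 FPKM in WT. The counting intervals of Cct2 and Cct4 included 1. The subunit gene Tcp1, outside the symbol rule, was at 31.6 FPKM in CKO and 50.1 FPKM in WT, 1.58-fold lower (1.51 to 1.66). The prefoldin genes, whose product hands chains to CCT, were not uniform: Pfdn5 was at 104 FPKM in CKO and 124 FPKM in WT, and Vbp1 at 13.4 FPKM in CKO and 9.28 FPKM in WT. Vbp1 lies on the X chromosome, and the part of the differing sex chromosome content in its values was not tested. Of 9 chaperonin partners, Tcp1 included, none passed the size rule, against 8.76% of all measured genes. Cct6b, a germ cell subunit, had 7 reads in CKO and 18 in WT and was not measured.

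The spread among CCT subunits depended on the gene length used. With the deposited lengths the highest measured subunit stood 6.71-fold above the lowest in CKO and 7.34-fold in WT. The deposited lengths of these genes were up to 3.22 times the length of the principal annotated transcript, and with that transcript's length the spread was 3.76-fold in CKO and 4.65-fold in WT, with Cct5 highest and Cct4 lowest in both. Ratios between the libraries do not depend on the length before 1 FPKM is added. Dnajc15, a mitochondrial J-protein, had the highest DNAJC level, at 15.6 FPKM in CKO and 15.7 FPKM in WT, but its deposited length of 648 bases compares with 6513 annotated exon bases, so its place in that order is uncertain.

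**Figure D3:**
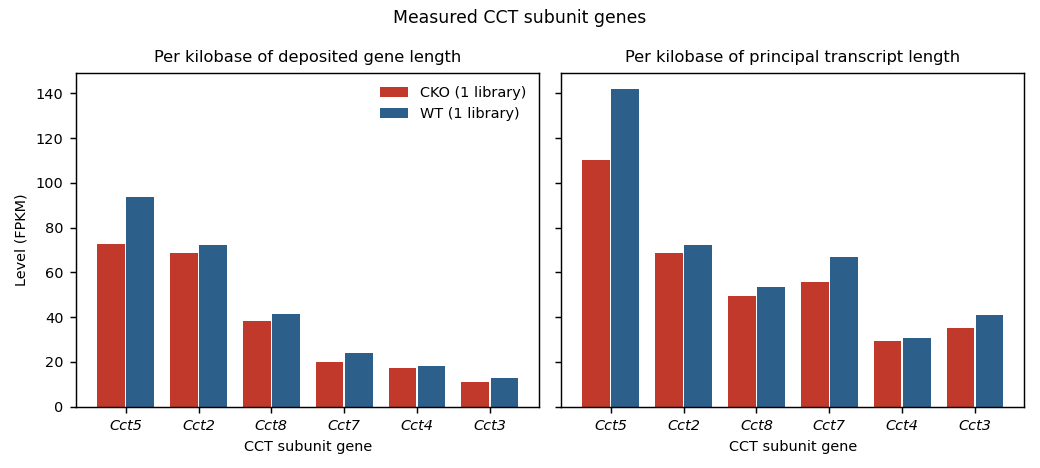
Levels (FPKM, linear axis from 0) of the 6 measured CCT subunit genes in CKO (red bars) and WT (blue bars), 1 library each, per kilobase of the deposited gene length (left) and of the principal annotated transcript (right). Cct3, lowest on the left at 10.8 FPKM in CKO and 12.8 FPKM in WT, reaches 35.0 FPKM in CKO and 41.1 FPKM in WT on the right, while the CKO to WT ratios are the same in both panels.

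All 6 small heat shock protein genes had ratios below 1 as deposited (above 1 with library totals) and lay within 1.5-fold, with a median log2 ratio of -0.23. Among all measured genes 52.2% had log2 ratios below 0 and 81.8% lay within 1.5-fold. Hspb1, the widely expressed HSP25, ranked 17 of 21673 genes in CKO and 20 in WT, with 1907 FPKM in CKO and 2429 FPKM in WT, 1.27-fold lower (1.26 to 1.29). Hspb2, first described in muscle, was at 40.6 FPKM in CKO and 51.9 FPKM in WT, 1.28-fold lower (1.15 to 1.42). The other members Hspb3, Hspb6 and Hspb8 were at 3.89, 3.82 and 3.34 FPKM in CKO and 5.28, 3.99 and 3.43 FPKM in WT, with counting intervals that included 1. Hspb11, now known as an intraflagellar transport protein, was at 6.28 FPKM in CKO and 6.83 FPKM in WT. Hspb1 therefore carried 97.1% of the summed small heat shock protein level in either library.

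The alpha-crystallins, which belong to the small heat shock protein family by sequence but not by symbol, differed more. Cryaa was at 85420 FPKM in CKO and 215436 FPKM in WT, a log2 ratio of -1.33, and Cryab at 13647 FPKM in CKO and 36990 FPKM in WT, a log2 ratio of -1.44, so both passed the size rule as lower. With scaling to library totals their log2 ratios were -0.44 and -0.55, short of the rule, and with totals that leave out the crystallins -1.09 and -1.19. The level of Cryab was 7.16 times that of Hspb1 in CKO and 15.2 times in WT. Hspb2 lies 403 bases from Cryab, head to head on chromosome 9, and 18.4% of the distinct 100-base stretches of its transcripts also occur in annotated Cryab transcripts, whose level was 336 times that of Hspb2 in CKO and 713 times in WT. The part of Cryab reads in the Hspb2 values was not tested.

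Of the heat shock factors, only Hsf4 passed the size rule. Hsf4, the lens factor, was at 56.8 FPKM in CKO and 125 FPKM in WT, 2.21-fold lower (2.09 to 2.33). Its log2 ratio of -1.13 was -0.25 with scaling to library totals and -0.89 with totals that leave out the crystallins, short of the size rule in both. Hsf1, the main factor of the heat shock response, was at 8.76 FPKM in CKO and 8.99 FPKM in WT, and Hsf2 at 5.03 FPKM in CKO and 4.09 FPKM in WT. Hsf5 had 2 reads in each library. The 12 members listed as heat-inducible targets of HSF1 were not alike: 11 were measured, 1 was higher (Hspa1b), 8 had log2 ratios below 0, and the median was -0.08. Among all measured genes 5.83% were higher and 52.2% had log2 ratios below 0. Bag3, an HSP70 exchange factor induced by the same pathway, was at 7.03 FPKM in CKO and 8.74 FPKM in WT, and Chordc1, an HSP90 co-chaperone likewise induced, at 11.3 FPKM in CKO and 13.8 FPKM in WT.

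The 2-unit heat shock element occurred in the windows of 18 of 62 members (29.0%), against 14.3% of 12091 protein-coding genes. The 16 measured members with the element had a median log2 ratio of -0.08, and the 37 without it -0.11. Hspa1b and Hspa1a hold the same single element at the same place. Hspa12a has none in the windows searched. These matches describe letters in a window and not bound sites.

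Of 14 measured co-chaperones of HSP70 none passed the size rule, against 8.76% of all measured genes, and the median log2 ratio was -0.03. The highest ratio was that of Sil1, an exchange factor for BiP, at 11.1 FPKM in CKO and 7.42 FPKM in WT (counting interval of the ratio 1.26 to 1.79). St13, which binds HSP70 in its ADP state, had the lowest, at 49.5 FPKM in CKO and 68.5 FPKM in WT. Over all 47 measured network genes outside the symbol rule, 3 were lower by the size rule, Hsf4, Cryaa and Cryab, and none was higher. Among all measured genes 2.93% were lower and 5.83% higher.

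The 11 members below the level rule were Hspa1a, Hspa1l, Hspa12b, Dnajb3, Dnajb7, Dnajb8, Dnajb13, Dnajc5b, Dnajc22, Cct6b and Cct8l1, several of them known from testis. Of these, 4 had 3 reads or fewer in each library, and for those no ratio is given. Dnajc5b and Dnajb8 had 0 reads in CKO and 2 in WT, Dnajc22 had 3 reads in CKO and 0 in WT, and Cct8l1 had 1 read in each library, all at or under the floor of 3 reads that a count of 0 allows. Such genes were not detectable at this depth rather than shown to be absent.

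How the libraries were scaled decided on which side of equal levels most members fell. With the deposited scaling 40 of 66 log2 ratios of members were below 0 (60.6%), as were 52.2% of those of all measured genes. When library totals alone were used, the median of all measured genes was 0.68, against -0.02 as deposited, and that of the members 0.70. With these totals 10 of 66 members were higher and none lower, against 19.5% higher and 0.827% lower over all measured genes. No member was then below 0. Scaling to library totals without the crystallins, which take a large share of lens reads, gave medians of 0.20 for all measured genes and 0.15 for the members. It counted 5 of 66 members higher and none lower, against 8.60% higher and 2.40% lower over all measured genes. The members' median differed from that of all measured genes by -0.05 as deposited, 0.02 with library totals and -0.05 without crystallins. Hspa12a and Hspa1b were higher under each of these scalings, with log2 ratios of 1.65 and 1.47 as deposited, 2.11 and 1.95 with library totals and 2.30 and 2.07 without crystallins. Ratios below 1 depend on the scaling. Hsp90ab1 had log2 ratios of -0.70 as deposited, -0.71 with median-of-ratios scaling, -0.45 without crystallins and 0.19 with library totals. Those of Hspb1 were -0.35, -0.36, -0.10 and 0.54 in the same order.

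**Figure D4:**
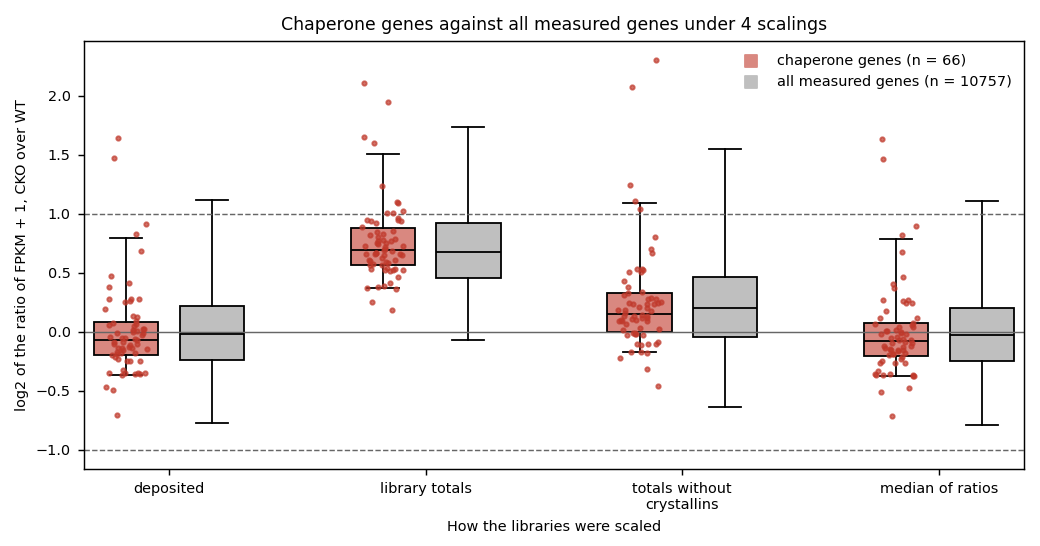
Log2 ratios of FPKM + 1, CKO over WT (vertical axis), for the 66 measured chaperone genes (red boxes and points) and the 10757 measured genes (grey boxes) under 4 ways of scaling the libraries; boxes show quartiles and median, whiskers the 5th and 95th percentiles, and dashed lines 2-fold. The chaperone box follows the grey box in each scaling, with 2 points above 2-fold under the deposited scaling and 10 under library totals. Over all measured genes 5.83% were higher under the deposited scaling and 19.5% under library totals.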

How the data were processed

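RNA sequencing of lenses was compared between 1 CKO and 1 WT library. Per the submitters' processing notes STAR 2.5.1b, HTSeq 0.6.0 and DESeq2 1.10.1 were named, with no role given. The sources do not state the genome build, annotation or strandedness. The deposited table gives values read here as FPKM, a unit inferred from the values: each times its gene length was a whole multiple of 1 step per library (100% of values within 0.001 of a read), which gave the reads. The deposited FPKM are scaled to effective libraries of 23369238 reads in CKO and 15267100 in WT, 1.36 and 0.735 times the recovered totals. All 77 member identifiers were found in GENCODE M21 (GRCm38) on the same chromosome and overlapping the annotated gene, so coordinates are taken as GRCm38.

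A log2 ratio is log2 of (CKO FPKM + 1) over (WT FPKM + 1), which understates ratios of low genes. Measured genes had a mean of 1 FPKM or more, and the size rule was 2-fold. With 1 library per genotype no test was run. Fold intervals are exact conditional binomial (Clopper-Pearson, 95%) from recovered reads. They cover counting error only. A gene with 0 reads was read against a floor of 3 reads.

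Members and lists were chosen with earlier results of these data known. Genes named were those past the size rule, the 10 highest, the highest and lowest log2 ratio per class and a set list. Others were added after their values were seen: Dnajc12, Sil1, St13, Vbp1, Pfdn5, Stip1, Ahsa1, Cdc37, Bag3 and Chordc1 among them. Principal transcript lengths and shared 100-base stretches come from GENCODE M21 and were added after the data were seen. Alternatives were 3 other scalings, a pseudocount of 0.1, no minimum, a mean of 5 FPKM and a minimum of 10 reads. Scripts used Python 3.11.15, pandas 2.3.3 and SciPy 1.17.1 and were tested on simulated data.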

Additional observations from a re-analysis of the deposited data

How the results depend on the processing

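No paired analysis was possible because each genotype has 1 library, and for the same reason no library could be left out. The count of members lower in CKO was 0 under every alternative run, where 0.827% to 4.55% of all genes kept were lower. The count higher was 2, and became 10 with library totals alone, 5 with totals without crystallins, 4 with a pseudocount of 0.1 (Dnajc9 and Dnajc12 added) and 0 with a mean of 5 FPKM, where Hspa12a and Hspa1b were not among the genes kept. Of all genes kept, 5.83% were higher as deposited, 19.5% with library totals, 8.60% without crystallins, 8.14% with the pseudocount of 0.1 and 4.34% with the mean of 5 FPKM. The count of members higher stayed at 2 with median-of-ratios scaling, with no minimum and with a minimum of 10 reads. In these runs 5.78%, 3.69% and 4.56% of all genes kept were higher. Class medians moved with scaling because all genes moved. With library totals alone they were 0.73 for HSP90, 0.72 for HSP70 and HSP110, 0.60 for small heat shock proteins, 0.64 for the mitochondrial chaperonin, 0.81 for DNAJA, 0.66 for DNAJB, 0.74 for DNAJC and 0.68 for CCT. With totals without crystallins they were 0.11 for HSP90, 0.14 for HSP70 and HSP110, 0.0080 for small heat shock proteins, 0.0068 for the mitochondrial chaperonin, 0.26 for DNAJA, 0.10 for DNAJB, 0.25 for DNAJC and 0.073 for CCT. Of the 66 measured members, 40 changed sign with library totals alone, 23 with totals without crystallins and 2 with median-of-ratios scaling (Dnaja2 and Dnajc2, both near 0). Low reads limit Hspa1b (20 in WT) and Hspa12a (34 in WT), and genes at a few reads cannot be compared.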

Other observations

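Rows of the table that match the chaperone symbols without the protein-coding type numbered 3. Cct6a, a CCT subunit gene that the table types as a processed transcript, was at 19.9 FPKM (1685 reads) in CKO and 24.8 FPKM (1372 reads) in WT, 1.25-fold lower (95% counting interval 1.16 to 1.34), within the range of the CCT subunits typed as protein-coding. The pseudogene Hspd1-ps3 had 15 reads in CKO and 12 in WT, and Dnajc19-ps had 0 reads in CKO and 3 in WT. Of the 66 measured members 22 overlap another gene of the table, and where the other gene is on the opposite strand, reads could not be assigned without strand information.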
